A study of Mus musculus with 82 samples.

Results

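Ears of mice treated with imiquimod and the oral CCR6 inhibitor IDOR-1117-2520 were compared with ears treated with imiquimod alone, 2 days after the first application of the cream. The comparison used 12 of the 82 libraries of the series. In the drug group (6 libraries, numbered 13 to 18) imiquimod cream (5%) was put on the ear once a day from day 0, and the inhibitor was in the drinking water from at least 1 day before the cream. In the imiquimod group (6 libraries, 7 to 12) the cream was given without the inhibitor. The sham group of day 2 (6 libraries, 1 to 6) gives the level in ears without imiquimod; it is called vehicle in 1 of its labels. All mice were females of the strain C57BL/6J Rj, and each library came from a punch of the right ear. The labels do not give the age of the mice, the dose of the inhibitor, the time of day of sampling, or whether each library came from a separate animal. The p-values therefore measure the spread between these libraries.

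Imiquimod activates the endosomal receptor TLR7, and the cream is used in mice to induce an inflammation with features of psoriasis. CCR6 is the receptor for the chemokine CCL20, which activated keratinocytes release. In mouse skin it marks gamma delta T cells that make IL-17A, IL-17F and IL-22 when stimulated by IL-23 and IL-1 beta. These cytokines act on keratinocytes, which then divide, switch to the stress keratins Krt6 and Krt16, and make antimicrobial proteins, IL-36 cytokines and chemokines that attract neutrophils.

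The libraries held 14.8 M to 24.7 M estimated counts in the drug group, 13.1 M to 21.2 M in the imiquimod group and 16.1 M to 35.4 M in the sham group. Keratinocyte keratins were abundant in every group, with Krt14, a keratin of the basal epidermis, at 8773 ± 535 CPM (counts scaled to library size, mean ± SD, n = 6) in drug libraries and 9926 ± 1361 in imiquimod libraries. CPM values were not scaled to gene length, so they compare libraries and not genes. In punches of whole tissue, fewer cells of a type and less RNA per cell cannot be told apart.

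The imiquimod libraries were not alike. A score for each library was taken as the mean log2 CPM, less the sham mean, of 805 genes that imiquimod raised and of 860 that it lowered by a log2 of at least 2 in size, in the other experiment of the series. For the raised genes the drug libraries scored 0.88 to 1.29 (median 1.08) and the imiquimod libraries 1.23 to 2.17 (median 1.497). Libraries 9 and 11 of the imiquimod group had the highest scores (1.95 and 2.17), library 8 came next (1.72), and libraries 7, 10 and 12 (1.28, 1.28 and 1.23) lay below the highest drug library, number 17. For the lowered genes the drug libraries scored -0.70 to -0.41, and the imiquimod libraries -1.15 to -0.64. Libraries 9 and 11 stood apart there, at -1.15 and -1.14, while the next imiquimod library was at -0.87. For the raised genes they did not, since library 8 lay closer to library 9 than to libraries 7, 10 and 12. Results below are therefore given with all libraries, and those for most of the genes named and most lists also without libraries 9 and 11, where 6 drug libraries face 4 imiquimod libraries.

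**Figure D1:**
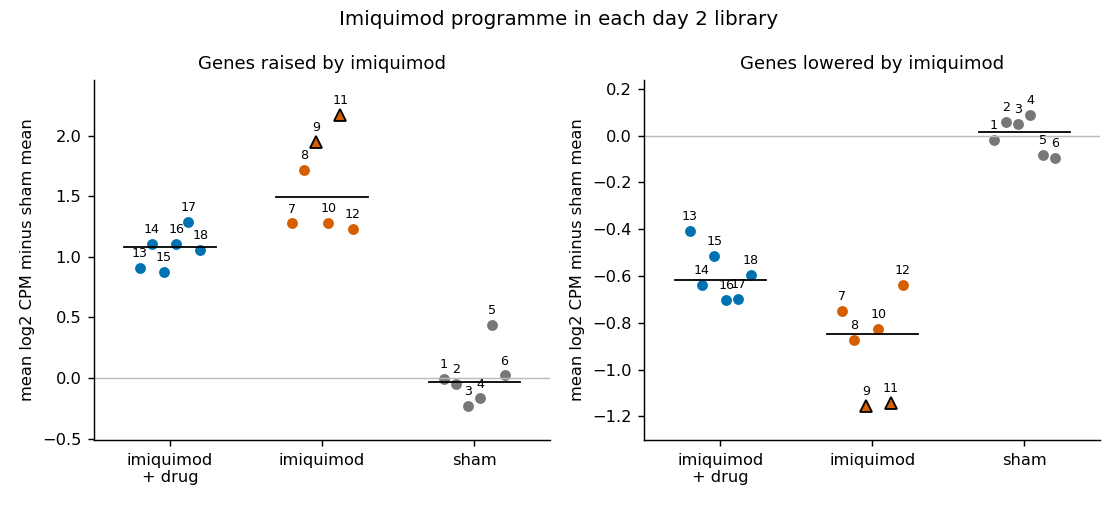
Mean log2 CPM less the sham mean of genes raised (left, 805 genes) and lowered (right, 860 genes) by imiquimod in the other experiment, for each day 2 library (numbered points; drug, imiquimod and sham groups from left to right; bars are medians; triangles are imiquimod libraries 9 and 11). Libraries 9 and 11 have the highest score for raised genes, 1.95 and 2.17, and drug libraries span 0.88 to 1.29.

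With all libraries, 3100 genes were called at an edgeR adjusted p under 0.05, which is 16.5% of the 18780 tested. Of these, 1295 were higher in drug libraries (6.9% of those tested) and 1805 lower (9.61%). Counts of list members below are to be read beside these shares. Most changes were small, with a median size of log2 0.29 among the called genes. A log2 of at least 1 in size was reached by 210 called genes (1.12%), and 177 of them were lower (0.942%). Every drug library lay above every imiquimod library for 181 genes (0.964%) and below for 146 (0.777%), whether called or not. The number of calls was 1416 without imiquimod library 9, 1740 without imiquimod library 11 and 1766 without drug library 13, the single libraries whose removal moved it by over 1.5 times.

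Without imiquimod libraries 9 and 11, edgeR called 7 genes, 0.0374% of 18741, and all 7 were also called with all libraries. They are Paqr7, Slc24a2, Sik1, Heca, Mef2a and Rnf220, higher in drug libraries (6 genes, 0.032% of those tested), and Fam98a, lower (0.00534%). That fit shares all 6 drug and 4 imiquimod libraries with the fit that chose the called genes, so the values of those genes in it are a description and not a second test. Of the 3096 called genes that were also tested without the 2 libraries, 2230 had an unadjusted p under 0.05 (14.9% of all 18741 tested genes had one, 6.6% higher and 8.31% lower). Sizes were smaller, with a median log2 size of 0.29 for these called genes with all libraries and of 0.21 without the 2. Of 173 genes lower by a log2 of at least 1, 86 still were without the 2 libraries, and their median log2 was -1.62 with all libraries and -0.996 without the 2. Of 33 genes higher by that much, 26 still were. The standard error grew little, with a median over genes of 0.113 with all libraries and 0.123 without the 2. Log2 fold changes below are given ± this standard error, which was derived from the fold change and the edgeR F statistic. It is not an SD between libraries.

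The number of surviving calls depended on the test. Without the 2 libraries DESeq2 called 299 genes (1.6%; 0.747% higher and 0.848% lower), of which 294 were also in the 3100, and limma voom with weights for libraries called 57 (0.304%; 0.133% higher and 0.171% lower), all of them in the 3100. DESeq2 and voom shared 48 genes, 22 higher and 26 lower in drug libraries, with edgeR adjusted p between 0.0206 and 0.0886. All 3 tests called Paqr7, Fam98a, Mef2a, Heca, Sik1 and Rnf220, while Slc24a2, with few counts, has no DESeq2 adjusted p. When only the 2 compared groups entered the fit, edgeR called 0 genes even with all 12 libraries, where 4612 genes had an unadjusted p under 0.05 and the lowest adjusted p was 0.0593. It also called 0 without libraries 9 and 11 (2233 genes with an unadjusted p under 0.05).

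**Figure D2:**
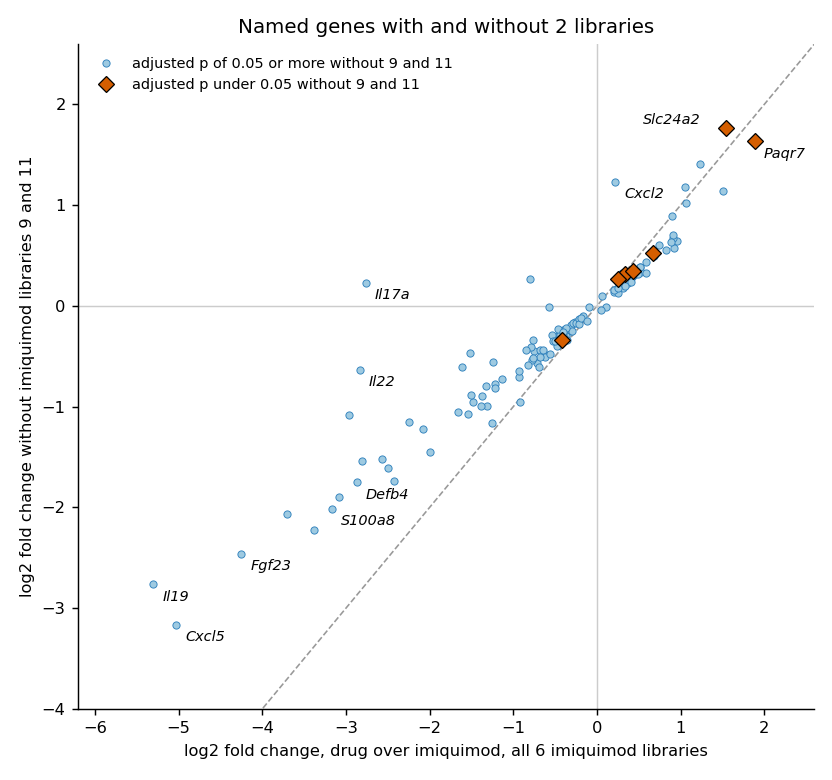
Log2 fold change of drug over imiquimod for the named genes, with all libraries (horizontal) and without imiquimod libraries 9 and 11 (vertical); the dashed line marks equal values. Orange diamonds are the 7 genes with an edgeR adjusted p under 0.05 without the 2 libraries, and genes such as Il19, at -5.30 and -2.77, lie far from the line.

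Paqr7, a membrane progesterone receptor, had the highest fold change of the named genes called with all libraries. Its level was 27.8 to 217 CPM (median 62.2) in drug libraries, against 12.4 to 32.1 CPM (median 24.8) in imiquimod libraries. Only drug library 15, at 27.8 CPM, lay within the imiquimod range, and library 13, at 217 CPM, stood far above the other drug libraries. Sham libraries had 155 to 270.5 CPM (median 215), so drug library 13 lay in the sham range and libraries 14, 16, 17 and 18 lay between the imiquimod and the sham range. Paqr7 was log2 1.89 ± 0.27 at an edgeR adjusted p of 0.000106 with all libraries, and 1.63 ± 0.30 (adjusted p 0.0206) without the 2. Without drug library 13 it was still called, at log2 1.355.

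Sik1, a salt-inducible kinase of the AMPK family, had 121 to 216 CPM (median 141) in drug libraries, against 59.5 to 119 CPM (median 101) in imiquimod libraries. The groups did not overlap, and library 9 was the lowest imiquimod library. It was log2 0.66 ± 0.11 at an edgeR adjusted p of 0.000491, and 0.52 ± 0.11 (adjusted p 0.0397) without the 2 libraries. Slc24a2, a sodium, calcium and potassium exchanger, was scarce but also separated the groups, with 0.697 to 1.05 CPM (median 0.893) in drug libraries, against 0.182 to 0.533 CPM (median 0.277) in imiquimod libraries. The counts behind it were 104 in the 6 drug libraries and 32 in the 6 imiquimod libraries. It was log2 1.55 ± 0.30 at an edgeR adjusted p of 0.000908, and 1.77 ± 0.35 (adjusted p 0.0247) without the 2 libraries.

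The other 4 surviving genes changed by less than a log2 of 0.5 and had narrow groups. Mef2a, a transcription factor best known from muscle and heart, had 174 to 202 CPM (median 182) in drug libraries, against 138 to 163 CPM (median 146) in imiquimod libraries, and every drug library lay above every imiquimod library. Its change was log2 0.34 ± 0.05 at an edgeR adjusted p of 0.000372, and 0.32 ± 0.06 (adjusted p 0.0206) without the 2 libraries. Rnf220, a RING-type ubiquitin ligase, also separated the groups, with 83.6 to 96.6 CPM (median 90.3) in drug libraries, against 70.2 to 81.003 CPM (median 74.8) in imiquimod libraries, and its change stayed at log2 0.26 in both fits (adjusted p 0.000908 and 0.0481). Heca, the mouse relative of the fly gene headcase, had 68.6 to 81.9 CPM (median 75.7) in drug libraries, against 45.8 to 70.2 CPM (median 54.6) in imiquimod libraries. One imiquimod library, number 10, reached the drug range. Heca was log2 0.43 ± 0.06 at an edgeR adjusted p of 0.000106, and 0.34 ± 0.07 (adjusted p 0.0206) without the 2. Fam98a was lower, with 30.6 to 39.2 CPM (median 34.4) in drug libraries, against 38.9 to 51.5 CPM (median 47.2) in imiquimod libraries, and again imiquimod library 10 (38.9 CPM) lay inside the drug range. It was log2 -0.42 ± 0.06 at an edgeR adjusted p of 0.000106, and -0.34 ± 0.07 (adjusted p 0.0206) without the 2. Leaving out any 1 of the 12 libraries ended the call of none of these 7 genes.

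Among the 48 genes that DESeq2 and voom both called without the 2 libraries, 4 belong to the gene lists used here, namely Acsbg1, described with the higher genes, and Bcl3, a nuclear cofactor of NF-kB induced by IL-17 (-0.99 ± 0.23, DESeq2 adjusted p 0.0146, voom adjusted p 0.0497), the heat shock protein Hsph1 (-0.61 ± 0.15, 0.0146 and 0.047 in the same order) and Ptges, the synthase of prostaglandin E2 (-0.51 ± 0.12, 0.00989 and 0.047). Bcl3 had 11.2 to 25.5 CPM (median 15.8) in drug libraries, against 18.6 to 70.5 CPM (median 37.5) in imiquimod libraries. Imiquimod library 10, at 18.6 CPM, lay inside the drug range, and library 9, at 70.5 CPM, was the highest. Ptges had 80.01 to 141 CPM (median 109) in drug libraries, against 119 to 220.1 CPM (median 179) in imiquimod libraries, and Hsph1 17.4 to 30.9 CPM (median 21.96) in drug libraries, against 23.1 to 40.7 CPM (median 38.7) in imiquimod libraries. In both, library 10 was the only imiquimod library inside the drug range. EdgeR gave 0.0641, 0.0643 and 0.0641 as adjusted p for the 3 genes in the same libraries, so none passed there.

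Calprotectin and other antimicrobial genes formed 1 of the groups with the most calls with all libraries. Of 20 tested, 13 were lower in drug libraries and 1 was higher, with a median of log2 -1.48 (all tested genes 0.01). Of the 20, 2 had groups that did not overlap, with the drug libraries lower, as 0.777% of all tested genes did. Leaving out imiquimod library 9 or 11 alone left 8 lower each time, and without both none was called by edgeR, 10 had an unadjusted p under 0.05, and the median was -0.77. S100a8, a calprotectin subunit made by neutrophils and by activated keratinocytes, had 13.5 to 91.1 CPM (median 35.01) in drug libraries, against 56.9 to 1009 CPM (median 248) in imiquimod libraries, with 0.356 to 13.9 CPM (median 1.11) in sham libraries. Of the drug libraries 5 lay below every imiquimod library, and number 17, at 91.1 CPM, lay above only the lowest of them, number 12. It was log2 -3.17 ± 0.58 at an edgeR adjusted p of 0.000776, and -2.02 ± 0.54 (adjusted p 0.0853) without the 2 libraries. Its partner S100a9 was log2 -3.08 ± 0.57 at an edgeR adjusted p of 0.000803, and -1.89 ± 0.53 (adjusted p 0.0897) without them, where DESeq2 alone called it (adjusted p 0.0496).

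Lcn2, which encodes the iron-sequestering lipocalin 2, had 13.005 to 20.4 CPM (median 18.7) in drug libraries, against 20.1 to 68.6 CPM (median 37.7) in imiquimod libraries. The highest drug libraries, near 20 CPM, met the lowest imiquimod library. Lcn2 was log2 -1.22 ± 0.30 at an edgeR adjusted p of 0.00485, and -0.77 ± 0.31 (adjusted p 0.228) without the 2 libraries. Defb4, a beta-defensin induced by IL-17, had 0 to 1.18 CPM (median 0.210) in drug libraries, against 0.463 to 8.53 CPM (median 1.59) in imiquimod libraries, and drug library 13 held no count. It was log2 -2.87 ± 0.60 at an edgeR adjusted p of 0.00141, and -1.75 ± 0.59 (adjusted p 0.149) without the 2. Chil1, a chitinase-like protein, had fully separate groups, with 79.2 to 157 CPM (median 129) in drug libraries, against 170.1 to 320.2 CPM (median 228) in imiquimod libraries. It was log2 -0.93 ± 0.20 at an edgeR adjusted p of 0.00202, and -0.71 ± 0.22 (adjusted p 0.116) without the 2. The count of higher members was 0 without drug library 13, 15 or 18 or imiquimod library 8, 9 or 11 and 2 without imiquimod library 7 or 12. The member that was higher, Wfdc21, was at log2 0.57 ± 0.19 (adjusted p 0.0326), and 0.35 ± 0.20 (adjusted p 0.419) without the 2. Defb6, Wfdc5 and Pglyrp1 were not called, at 0.06, -0.05 and -0.29.

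Stress keratins and other genes of activated keratinocytes were lower in drug libraries in 25 of 40 cases and higher in none, with a median of log2 -1.36. Leaving out any single library left 18 to 30 called. Without libraries 9 and 11 the median was -0.83, 19 genes had an unadjusted p under 0.05 and edgeR called none, while DESeq2 called 3, Sprr2b, Serpinb3a and Klk13. Krt6a had 208 to 1868 CPM (median 633) in drug libraries, against 1012 to 4354 CPM (median 2121) in imiquimod libraries. Drug library 17, at 1868 CPM, was the only one inside the imiquimod range. Krt6a was log2 -1.66 ± 0.45 at an edgeR adjusted p of 0.00991, and -1.06 ± 0.47 (adjusted p 0.273) without the 2 libraries, and Krt16, its partner, was log2 -1.49 ± 0.46 at an edgeR adjusted p of 0.0217, and -0.95 ± 0.49 (adjusted p 0.352) without them. Krt16 lost the call without drug library 13 or 15 or imiquimod library 9 or 11, at an adjusted p of 0.0574 to 0.0861.

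Cornified envelope precursors and protease inhibitors also stand in this list. Sprr2d, a small proline-rich precursor of the cornified envelope, had 4.03 to 25.9 CPM (median 13.04) in drug libraries, against 22.4 to 172 CPM (median 40.9) in imiquimod libraries. Only drug library 17 overlapped imiquimod libraries. Sprr2d was log2 -2.08 ± 0.39 at an edgeR adjusted p of 0.000866, and -1.23 ± 0.35 (adjusted p 0.106) without the 2 libraries. Cstdc6, of the stefin A family of cysteine protease inhibitors, was log2 -2.43 ± 0.38 at an edgeR adjusted p of 0.000372, and -1.74 ± 0.38 (adjusted p 0.0641) without the 2. Klk13, a kallikrein protease, was log2 -1.51 ± 0.27 at an edgeR adjusted p of 0.000703, and -0.88 ± 0.23 (adjusted p 0.084) without the 2, with a DESeq2 adjusted p of 0.0435 there. The Sprr2, Stfa, Cstdc, Krt6 and Serpinb3 genes have near-identical relatives, so reads may be split among them and values of single members are uncertain. Genes of late differentiation and cornification were mostly not called: of 33, 1 was higher (Dsg1a, log2 0.36 ± 0.10) and 2 were lower (Tgm3, log2 -0.75 ± 0.15, and Rptn, log2 -1.24 ± 0.31), with a median of 0.23. Without libraries 9 and 11 none was called, the median was 0.06, and Dsg1a, Tgm3 and Rptn stood at 0.25 ± 0.11, -0.44 ± 0.15 and -0.55 ± 0.26. The count of higher members was 0 without imiquimod library 9 and 4 without imiquimod library 10 or 12. Dsg1a missed the threshold without imiquimod library 9, at an adjusted p of 0.0681, and Rptn without imiquimod library 11, at an adjusted p of 0.0911.

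**Figure D3:**
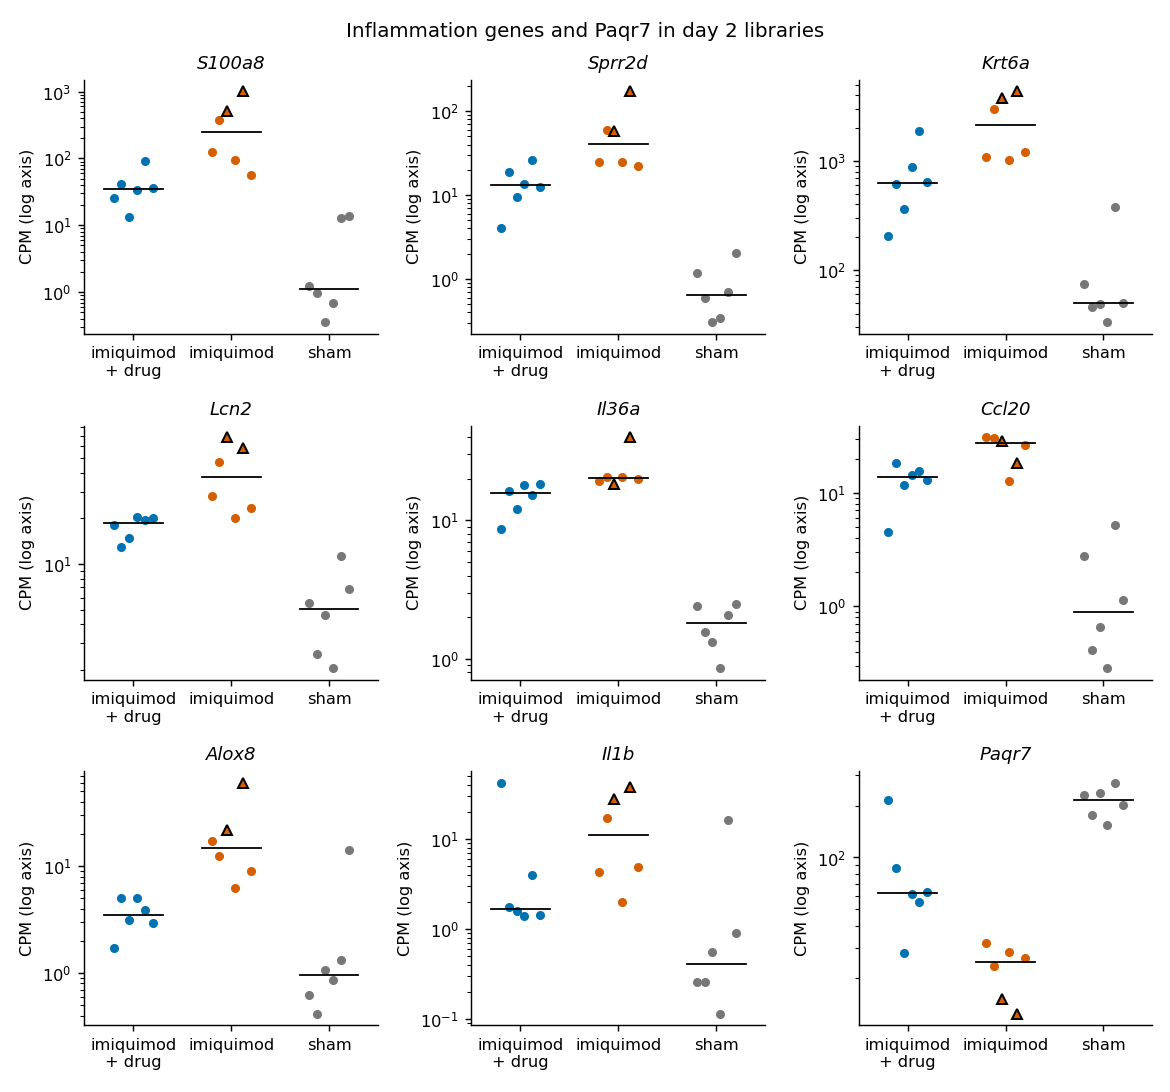
CPM on log axes of 8 inflammation genes and of Paqr7 in each day 2 library (points; drug, imiquimod and sham groups from left to right; bars are medians; triangles are imiquimod libraries 9 and 11). For S100a8 the drug median is 35.01 CPM and the imiquimod median 248 CPM, and 1 drug library lies in the imiquimod range.

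The receptor and ligand that the drug addresses were not called. Ccr6 was scarce, with 13 counts in all drug libraries and 29 in all imiquimod libraries, at 0.0393 to 0.238 CPM (median 0.0814) in drug libraries, against 0.122 to 0.533 CPM (median 0.259) in imiquimod libraries. It was log2 -1.25 ± 0.55 at an edgeR adjusted p of 0.113, and -1.16 ± 0.61 (adjusted p 0.366) without libraries 9 and 11. By an exact two-sided permutation test of log2 CPM over 924 relabellings, run for 20 genes, the unadjusted p of Ccr6 was 0.0325, and 0.0667 without the 2 libraries. Ccl20 had 4.52 to 18.3 CPM (median 13.7) in drug libraries, against 12.8 to 31.05 CPM (median 27.5) in imiquimod libraries, with 0.286 to 5.24 CPM (median 0.899) in sham libraries. All 6 drug libraries lay below the imiquimod median, and 2 lay below every imiquimod library. Ccl20 was log2 -0.92 ± 0.46 at an edgeR adjusted p of 0.165. By the same permutation test its difference of mean log2 CPM was -0.97, with an unadjusted p of 0.0173. Without libraries 9 and 11 the edgeR value was nearly the same, -0.95 ± 0.51 (adjusted p 0.386), and the exact p was 0.0476, where 0.00952 is the smallest that 210 relabellings allow.

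IL-17 family cytokines were at the edge of detection. Il17a had 2 counts in the drug libraries and 16 in the imiquimod libraries, nearly all of them in libraries 9 and 11, a ratio of 0.114 (95% interval 0.0127 to 0.485, for counting error only). With all libraries it was log2 -2.76 ± 1.08 at an edgeR adjusted p of 0.0717 and so not called, but it passed the threshold without imiquimod library 7, 8 or 12, at an adjusted p of 0.0392 to 0.0468. Without libraries 9 and 11 the sign turned, at 0.23 ± 1.52 (adjusted p 0.965). Il17f, with 0.0491 to 0.329 CPM (median 0.252) in drug libraries, against 0.154 to 3.35 CPM (median 0.678) in imiquimod libraries, was log2 -2.24 ± 0.65 at an edgeR adjusted p of 0.0143, but -1.15 ± 0.71 (adjusted p 0.465) without libraries 9 and 11 and -1.51 (adjusted p 0.133) without library 11 alone. Il22, with 0 to 0.167 CPM (median 0.0597) in drug libraries, against 0 to 2.89 CPM (median 0.185) in imiquimod libraries, was log2 -2.83 ± 0.89 at an edgeR adjusted p of 0.023, and -0.64 ± 0.996 (adjusted p 0.813) without libraries 9 and 11. It lost the call without imiquimod library 11 (adjusted p 0.55), drug library 13 (0.0655) or drug library 14 (0.0572). Of 16 tested cytokines and receptors of this axis these 2 were the only ones called. Among 19 genes of CCR6-positive and IL-17-type gamma delta T cells, only the transcription factors Maf (log2 0.31 ± 0.10, adjusted p 0.0231) and Rora (log2 0.29 ± 0.10, 0.0394) were called, both higher. That is 10.5% of the list, below the 16.5% of all tested genes. Maf had 263 to 342 CPM and Rora 192 to 228 CPM in drug libraries, and which cells of the punch held them was not tested. Maf missed the threshold without drug library 13 or imiquimod library 8, 9 or 11, at an adjusted p of 0.0527 to 0.113, and Rora without drug library 13, 14, 15, 16 or 18 or imiquimod library 8, 9 or 11, at an adjusted p of 0.0507 to 0.139. They stood at 0.18 ± 0.10 (adjusted p 0.403) and 0.23 ± 0.11 (adjusted p 0.327) without libraries 9 and 11.

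Of 19 cytokines of the IL-1, IL-36 and IL-20 families, 4 were called lower and none higher: Il1a, Il36a, Il36g and Il19. That is 21.1% of the list, against 9.61% of all tested genes called lower. Il1a was log2 -0.72 ± 0.26 at an edgeR adjusted p of 0.0465, and -0.57 ± 0.28 (adjusted p 0.32) without libraries 9 and 11, and missed the threshold without drug library 13, 14, 15, 16 or 18 or imiquimod library 8, 9, 11 or 12, at an adjusted p of 0.056 to 0.196. The count was 2 without drug library 15 or imiquimod library 11, 6 without imiquimod library 12, and 7 without drug library 17 or imiquimod library 7 or 10. Il36a, an IL-36 agonist released by keratinocytes, had 8.64 to 18.3 CPM (median 15.8) in drug libraries, against 18.4 to 39.98 CPM (median 20.2) in imiquimod libraries. No drug library reached the lowest imiquimod library, and library 11 alone stood far above the other imiquimod libraries. Il36a was log2 -0.64 ± 0.20 at an edgeR adjusted p of 0.0218, and -0.45 ± 0.20 (adjusted p 0.271) without the 2 libraries. The exact permutation p was 0.00216 with all libraries and 0.00952 without the 2, the smallest that each design allows. Because the groups did not overlap with all libraries, the second of these p was fixed in advance and is not a further test. Il36a lost the edgeR call without imiquimod library 11 (adjusted p 0.147), drug library 13 (0.086) or drug library 15 (0.0602).

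Il36g, the related IL-36 gamma, had 25.4 to 39.1 CPM (median 33.7) in drug libraries, against 42.4 to 59.8 CPM (median 44.4) in imiquimod libraries, again with no overlap, and held its call with any 1 library left out. It was log2 -0.48 ± 0.12 at an edgeR adjusted p of 0.00387, and -0.39 ± 0.12 (adjusted p 0.126) without libraries 9 and 11, where DESeq2 gave 0.0448. Il19, a cytokine of the IL-20 family, had the lowest fold change of all named genes, log2 -5.30 ± 1.08 at an edgeR adjusted p of 0.00128. Libraries 9 and 11 held 5.84 and 16.4 CPM of it, and the other imiquimod libraries 0.154 to 1.51 CPM, against 0 to 0.321 CPM in drug libraries, and without them it stood at -2.77 ± 1.22 (adjusted p 0.269). Il1b was not called (log2 -0.80 ± 0.78 at an edgeR adjusted p of 0.525). Drug library 13, at 41.7 CPM, held more than any imiquimod library, and the other 5 drug libraries held 1.38 to 3.96 CPM. Without drug library 13 Il1b was called, at -2.91 (adjusted p 0.0328). Without imiquimod libraries 9 and 11 its sign turned, to 0.26 ± 0.91 (adjusted p 0.929).

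In the list of neutrophil chemokines, which also holds their receptor Cxcr2, 3 of 8 genes were called lower and none higher. The 3 were Cxcl5, Cxcl1 and Cxcr2. The median of the list was log2 -1.499, and -0.95 without libraries 9 and 11, where edgeR called none. Leaving out any single library left 2 to 4 called lower. Cxcl5 had 0.0491 to 0.268 CPM (median 0.182) in drug libraries, against 0.365 to 19.6 CPM (median 2.42) in imiquimod libraries, and no drug library reached an imiquimod library. It was log2 -5.03 ± 1.14 at an edgeR adjusted p of 0.00285, and -3.17 ± 1.32 (adjusted p 0.241) without the 2. Cxcr2, a receptor for these chemokines, was log2 -1.37 ± 0.28 at an edgeR adjusted p of 0.00122, and -0.90 ± 0.28 (adjusted p 0.126) without the 2. It stands in both this list and the list of neutrophil markers. Cxcl1 had 1.67 to 15.2 CPM (median 7.22) in drug libraries, against 7.15 to 28.3 CPM (median 18.7) in imiquimod libraries. It was called with all libraries, but leaving out 1 library ended the call in 8 cases, at an edgeR adjusted p of 0.0557 to 0.114. Cxcl2 went against the called genes in drug library 13, which held 29.8 CPM, more than any imiquimod library. It was not called (log2 0.22 ± 0.88 at an edgeR adjusted p of 0.901). Without drug library 13 it stood at -2.30 (adjusted p 0.153). Of 22 other chemokines 6 were called lower, which is 27.3%, against 9.61% of all tested genes. Among them were Ccl2 (log2 -1.14 ± 0.33, adjusted p 0.0132) and Ccl7 (log2 -1.22 ± 0.36, 0.0164), which attract monocytes. Without imiquimod library 9 none of the 22 was called lower, and the count was 1 without imiquimod library 11, 2 without drug library 13 and 3 without drug library 14. Ccl2 missed the threshold without imiquimod library 9 or 11, at an adjusted p of 0.0572 to 0.058, and Ccl7 without imiquimod library 9 or 11, at an adjusted p of 0.0561 to 0.0741. They stood at -0.73 ± 0.35 (adjusted p 0.312) and -0.81 ± 0.39 (adjusted p 0.315) without libraries 9 and 11.

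Markers of some other cell types were also called lower. With all libraries, 35.7% of tested neutrophil markers, 18.8% of macrophage and monocyte markers and 20% of vessel markers were called. Of all tested genes 16.5% were called (9.61% lower), so the macrophage and vessel shares lay near that background. The summed level of 16 neutrophil markers was 67.6 to 231 CPM in drug libraries, 183 to 2267 CPM in imiquimod libraries (183 to 853 CPM without libraries 9 and 11) and 21.7 to 83.2 CPM in sham libraries. S100a8 and S100a9 stand in both this list and the antimicrobial list. They held 1009 and 1134 CPM in imiquimod library 11, and 91.1 and 96.02 CPM in drug library 17. In both libraries these 2 genes made up most of the sum, so the sum says little of the other markers. Of 14 tested markers 5 were called lower and 9 were not, among them Ly6g, Retnlg and Mmp9, and the median of the 14 was log2 -1.25. EdgeR called none without libraries 9 and 11, and the median was -0.20 there. The count was 3 without each of drug libraries 14, 15, 16 and 18 and imiquimod libraries 9 and 11. Ly6g, a defining neutrophil marker, averaged 0.0323 ± 0.0366 CPM in drug libraries and 0.0459 ± 0.0914 in imiquimod libraries (SD, n = 6 each), and was at 0 in imiquimod libraries other than 9 and 11 and in sham libraries. Its fold change was log2 -0.15 ± 1.38 at an edgeR adjusted p of 0.957, and without libraries 9 and 11 the remaining counts were all in drug libraries. Csf3r, the receptor for G-CSF, was log2 -1.52 ± 0.53 at an edgeR adjusted p of 0.0429, and -0.47 ± 0.58 (adjusted p 0.758) without libraries 9 and 11. It missed the threshold without drug library 14, 15, 16, 17 or 18 or imiquimod library 9 or 11, at an adjusted p of 0.0596 to 0.263. Of 16 macrophage and monocyte markers 3 were called lower, Cd163 (log2 -0.77 ± 0.20 at an edgeR adjusted p of 0.00785), Mrc1 (log2 -0.76 ± 0.22 at an edgeR adjusted p of 0.0151) and Ly6c2 (log2 -1.62 ± 0.54 at an edgeR adjusted p of 0.0333), with the threshold missed by Mrc1 without drug library 13 or imiquimod library 9 or 11, at an adjusted p of 0.0569 to 0.0841, and by Ly6c2 without drug library 14, 15, 16 or 18 or imiquimod library 9 or 11, at an adjusted p of 0.0535 to 0.234. The 3 stood at -0.52 ± 0.22 (adjusted p 0.244), -0.33 ± 0.22 (adjusted p 0.505) and -0.61 ± 0.58 (adjusted p 0.673) without libraries 9 and 11. In sham, imiquimod and drug libraries the median of Cd163 was 28.7, 19.7 and 11.8 CPM, so drug libraries lay farther from sham. In the same order the median of Mrc1 was 35.5, 38.9 and 28.8 CPM, and that of Ly6c2 1.04, 4.31 and 1.72 CPM. The summed level of the 16 macrophage and monocyte markers was 618 to 767 CPM in drug libraries against 692 to 900 CPM in imiquimod libraries. Of 15 vessel markers the 3 called lower were the leukocyte-binding selectins Sele (log2 -1.32 ± 0.26 at an edgeR adjusted p of 0.000937) and Selp (log2 -0.94 ± 0.24 at an edgeR adjusted p of 0.0056), and Pdpn (log2 -0.83 ± 0.18 at an edgeR adjusted p of 0.00162). They stood at -0.79 ± 0.25 (adjusted p 0.126), -0.65 ± 0.25 (adjusted p 0.207) and -0.59 ± 0.18 (adjusted p 0.126) without libraries 9 and 11. No marker of Langerhans and dendritic cells (10), alpha beta T cells (12), epidermal gamma delta T cells (9) or mast cells (10) was called with all libraries, though 1 mast cell marker was without drug library 17, and the counts at an unadjusted p under 0.05 without libraries 9 and 11 were also 0. The macrophage count was 1 without imiquimod library 9 or 11, and the vessel count was 3 with any 1 library left out. The part of cell numbers in the results above was not tested.

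Genes of NF-kB and STAT3 feedback were called in 9 of 18 cases, 7 lower and 2 higher. The count of higher members was 0 without drug library 15 and 1 without drug library 13 or imiquimod library 8, 9 or 11. Stat3, the transcription factor downstream of IL-6, IL-22 and related cytokines, had 208 to 311 CPM (median 289) in drug libraries, against 292 to 411 CPM (median 372) in imiquimod libraries. Imiquimod libraries 10 and 12 overlapped the drug libraries. Stat3 was log2 -0.39 ± 0.08 at an edgeR adjusted p of 0.000996, and -0.29 ± 0.08 (adjusted p 0.0936) without libraries 9 and 11. Icam1, an adhesion molecule induced by NF-kB, was log2 -0.78 ± 0.16 at an edgeR adjusted p of 0.00114, and -0.53 ± 0.16 (adjusted p 0.107) without them. Nfkb1, an NF-kB subunit, was log2 -0.31 ± 0.07 at an edgeR adjusted p of 0.00194, and -0.25 ± 0.07 (adjusted p 0.112) without them. Without the 2 libraries DESeq2 called 4 of the list lower, Nfkb1, Bcl3, Stat3 and Icam1, and 1 higher, Cish, a SOCS family inhibitor (0.52 ± 0.13, DESeq2 adjusted p 0.0146).

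Eicosanoid genes gave 7 lower and 1 higher of 20. The count of higher members was 0 without drug library 13, 14, 15, 16 or 18 or imiquimod library 8, 9 or 11 and 2 without imiquimod library 12. Alox8, an arachidonate lipoxygenase, had 1.72 to 5.07 CPM (median 3.50) in drug libraries, against 6.22 to 60.2 CPM (median 14.7) in imiquimod libraries, and no drug library reached an imiquimod library. It was log2 -2.50 ± 0.50 at an edgeR adjusted p of 0.00118, and -1.61 ± 0.50 (adjusted p 0.122) without the 2 libraries, where DESeq2 gave 0.0498. Lta4h, the hydrolase that makes leukotriene B4, changed little but separated the groups, with 44.002 to 48.2 CPM (median 46.5) in drug libraries, against 51.4 to 56.9 CPM (median 52.9) in imiquimod libraries. Lta4h was log2 -0.22 ± 0.04 at an edgeR adjusted p of 0.00096, and -0.18 ± 0.05 (adjusted p 0.0832) without the 2. For both genes every drug library lay below every imiquimod library, which leaving out libraries 9 and 11 could not change. EdgeR called neither gene without those 2 libraries.

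**Figure D4:**
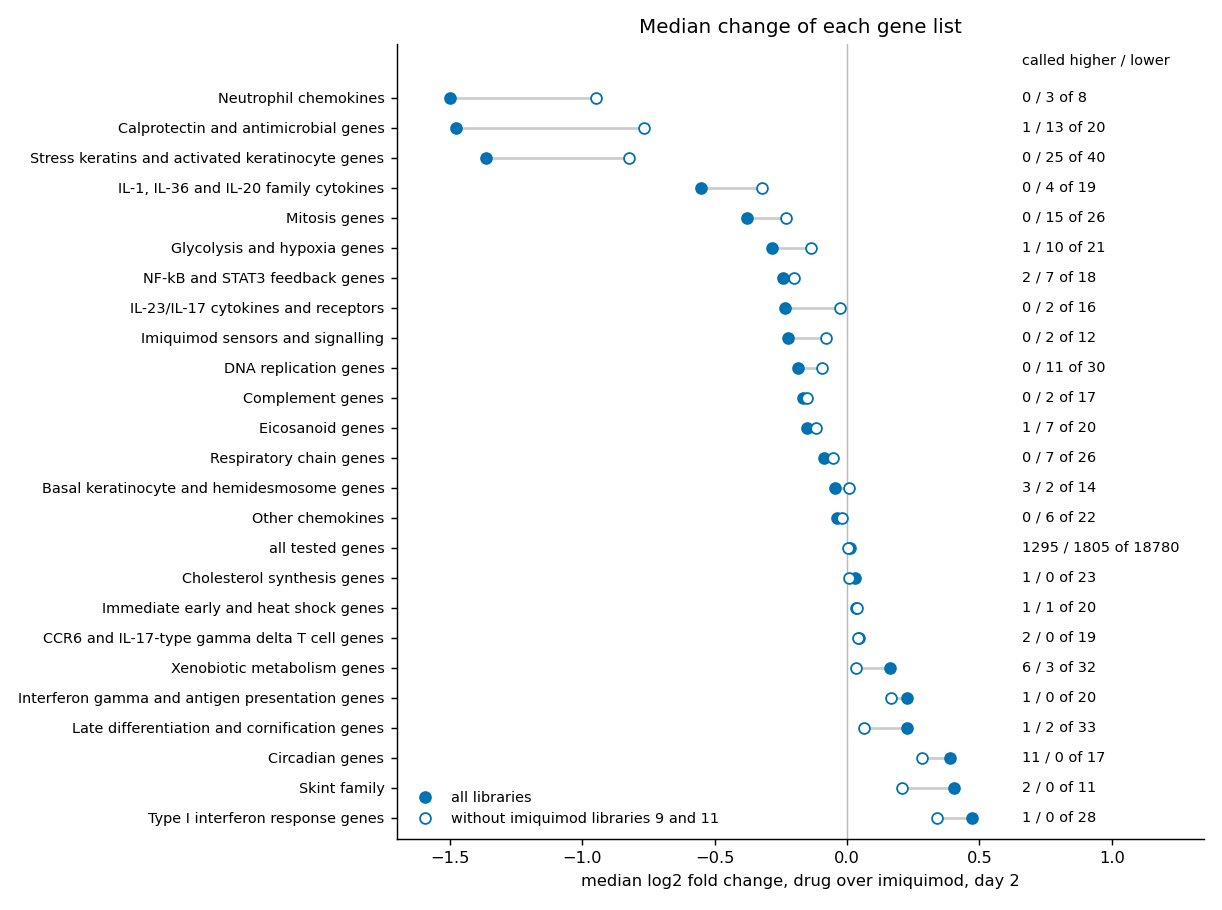
Median log2 fold change of drug over imiquimod for the tested members of each gene list, with all libraries (filled) and without imiquimod libraries 9 and 11 (open); the numbers at the right are members called higher and lower with all libraries. Neutrophil chemokines (a list that includes the receptor Cxcr2), antimicrobial genes and activated keratinocyte genes have the lowest medians, -1.499, -1.48 and -1.36.

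Some of the cell division genes were called, all of them lower. Of 26 mitosis genes 15 were called lower and none higher, with a median of log2 -0.38. None of them was called by edgeR without libraries 9 and 11, where 9 had an unadjusted p under 0.05 and the median was -0.23. Leaving out single libraries gave 5 (without imiquimod library 9) to 24 (without imiquimod library 12). The other counts more than 1.5 times away were 6 without drug library 13, 7 without drug library 15 and 8 without imiquimod library 11. Aurka, a spindle kinase, had 11.8 to 21.3 CPM (median 17.1) in drug libraries, against 17.9 to 34.2 CPM (median 25.2) in imiquimod libraries, and was log2 -0.65 ± 0.14 at an edgeR adjusted p of 0.00194, against -0.44 ± 0.15 (adjusted p 0.142) without libraries 9 and 11. Plk1, another mitotic kinase, was log2 -0.62 ± 0.15 at an edgeR adjusted p of 0.00387, and -0.51 ± 0.16 (adjusted p 0.133) without them, with a DESeq2 adjusted p of 0.0478. Mki67, the proliferation marker, was not called, at log2 -0.27 ± 0.12 at an edgeR adjusted p of 0.125, but passed the threshold without drug library 17 or imiquimod library 12. Of 30 DNA replication genes 11 were called lower, among them Rrm2, a subunit of ribonucleotide reductase (log2 -0.54 ± 0.13 at an edgeR adjusted p of 0.00471), and Tyms, thymidylate synthase, whose groups stood apart (log2 -0.30 ± 0.09 at an edgeR adjusted p of 0.0163). Tyms had 15.8 to 23.5 CPM (median 21.6) in drug libraries, against 23.7 to 28.9 CPM (median 25.6) in imiquimod libraries, with no overlap, and lost the call without drug library 13 or imiquimod library 11, at an adjusted p of 0.0583 to 0.0826. Without libraries 9 and 11 Rrm2 stood at -0.29 ± 0.13 (adjusted p 0.273) and Tyms at -0.24 ± 0.10 (adjusted p 0.229), edgeR called none of the 30, and their median was -0.10, against -0.19 with all libraries. The count of DNA replication genes was 2 without imiquimod library 11, 3 without imiquimod library 9, 3 without drug library 13 and 5 without drug library 15.

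Glycolysis and hypoxia genes were called lower in 10 of 21 cases and higher in 1. The count of higher members was 0 without drug library 13 or 14 or imiquimod library 7, 8 or 9 and 2 without drug library 17. Ldha, lactate dehydrogenase A, had 441 to 591 CPM (median 525) in drug libraries, against 543 to 853 CPM (median 666) in imiquimod libraries. Imiquimod libraries 7 and 12, the lowest 2 of that group, lay inside the drug range. Ldha was log2 -0.40 ± 0.08 at an edgeR adjusted p of 0.000803, and -0.24 ± 0.07 (adjusted p 0.108) without libraries 9 and 11, where DESeq2 gave 0.0448. Hk2, the hexokinase of the first step of glycolysis, had 66.1 to 90.7 CPM (median 87.1) in drug libraries, against 95.6 to 149 CPM (median 103) in imiquimod libraries with no overlap, and was log2 -0.41 ± 0.11 at an edgeR adjusted p of 0.00849, but 0.0577 as adjusted p without imiquimod library 11 and -0.26 ± 0.11 (adjusted p 0.253) without libraries 9 and 11. Of 26 respiratory chain genes 7 were called lower (26.9%, against 9.61% of all tested genes), with a median of -0.09. The count was 3 without drug library 13 or imiquimod library 9 and 4 without imiquimod library 11. Cycs, cytochrome c, was log2 -0.37 ± 0.08 at an edgeR adjusted p of 0.00194, and -0.22 ± 0.08 (adjusted p 0.171) without libraries 9 and 11. EdgeR called no member of either list without them.

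Circadian genes were the list with the most members called higher, 11 of 17, with none lower and a median of log2 0.39. In the clock of mammalian cells, CLOCK and BMAL1 (gene Arntl) bind E-boxes and switch on Per, Cry, Nr1d and output genes such as Dbp and Tef, whose products in turn inhibit them or pass the rhythm on. The list was chosen with earlier results of these data known, and the labels give no time of day, so a part of sampling time was not tested. Per1, a repressor of the clock, had 110.4 to 157 CPM (median 131) in drug libraries, against 50.9 to 101 CPM (median 79.96) in imiquimod libraries, with 54.9 to 99.4 CPM (median 83.7) in sham libraries. All drug libraries lay above both the imiquimod and the sham range. Per1 was log2 0.74 ± 0.14 at an edgeR adjusted p of 0.000924, and 0.60 ± 0.15 (adjusted p 0.0718) without libraries 9 and 11, where DESeq2 gave 0.013 and voom 0.06.

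Cry2, the partner of the Per proteins, had 76.03 to 94.1 CPM (median 83.5) in drug libraries, against 49.6 to 72.5 CPM (median 64.4) in imiquimod libraries, and Nr1d2, a nuclear receptor that represses Arntl, had 88.1 to 111 CPM (median 94.7) in drug libraries, against 62.5 to 84.3 CPM (median 74.01) in imiquimod libraries. In both genes the groups did not overlap, and drug libraries overlapped sham libraries, which had 84.1 to 106 CPM (median 90.4) of Cry2 and 88.1 to 103 CPM (median 94.2) of Nr1d2. Cry2 was log2 0.42 ± 0.09 at an edgeR adjusted p of 0.00162, and 0.30 ± 0.09 (adjusted p 0.115) without the 2 libraries, and Nr1d2 log2 0.39 ± 0.08 at an edgeR adjusted p of 0.00165, and 0.28 ± 0.09 (adjusted p 0.115) without them. Klf9, a glucocorticoid-responsive and clock-driven factor known from human epidermis, had 69.3 to 97.4 CPM (median 75.4) in drug libraries, against 50.9 to 69.04 CPM (median 58.96) in imiquimod libraries, with no overlap. It was log2 0.39 ± 0.08 at an edgeR adjusted p of 0.00128, and 0.33 ± 0.09 (adjusted p 0.0842) without the 2 libraries. DESeq2 called Per1, Klf9, Cry2 and Nr1d2 without the 2 libraries, edgeR called none of the 17, and 9 had an unadjusted p under 0.05, all higher (6.6% of all genes were higher with such a p).

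The output genes Dbp and Tef, named here after their values were seen, also had every drug library above every imiquimod library. Dbp had 91.4 to 133 CPM (median 95.96) in drug libraries, against 37.4 to 87.1 CPM (median 66.4) in imiquimod libraries, and was log2 0.70 ± 0.21 at an edgeR adjusted p of 0.0169, against 0.45 ± 0.21 without libraries 9 and 11. Tef had 189 to 271 CPM (median 202) in drug libraries, against 107 to 185 CPM (median 154) in imiquimod libraries, and was log2 0.50 ± 0.14 at an edgeR adjusted p of 0.0102, against 0.32 ± 0.14 without them. In each of Cry2, Nr1d2, Dbp and Tef, libraries 9 and 11 were the lowest of the imiquimod group. The activators Arntl (log2 -0.11 ± 0.11, adjusted p 0.507), Clock (log2 -0.06 ± 0.05, 0.488) and Npas2 (log2 0.14 ± 0.17, 0.6246) were not called, nor were Per2, Cry1 and Nfil3. The count of 11 fell to 7 without drug library 13, to 7 without imiquimod library 11 and to 6 without imiquimod library 9.

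**Figure D5:**
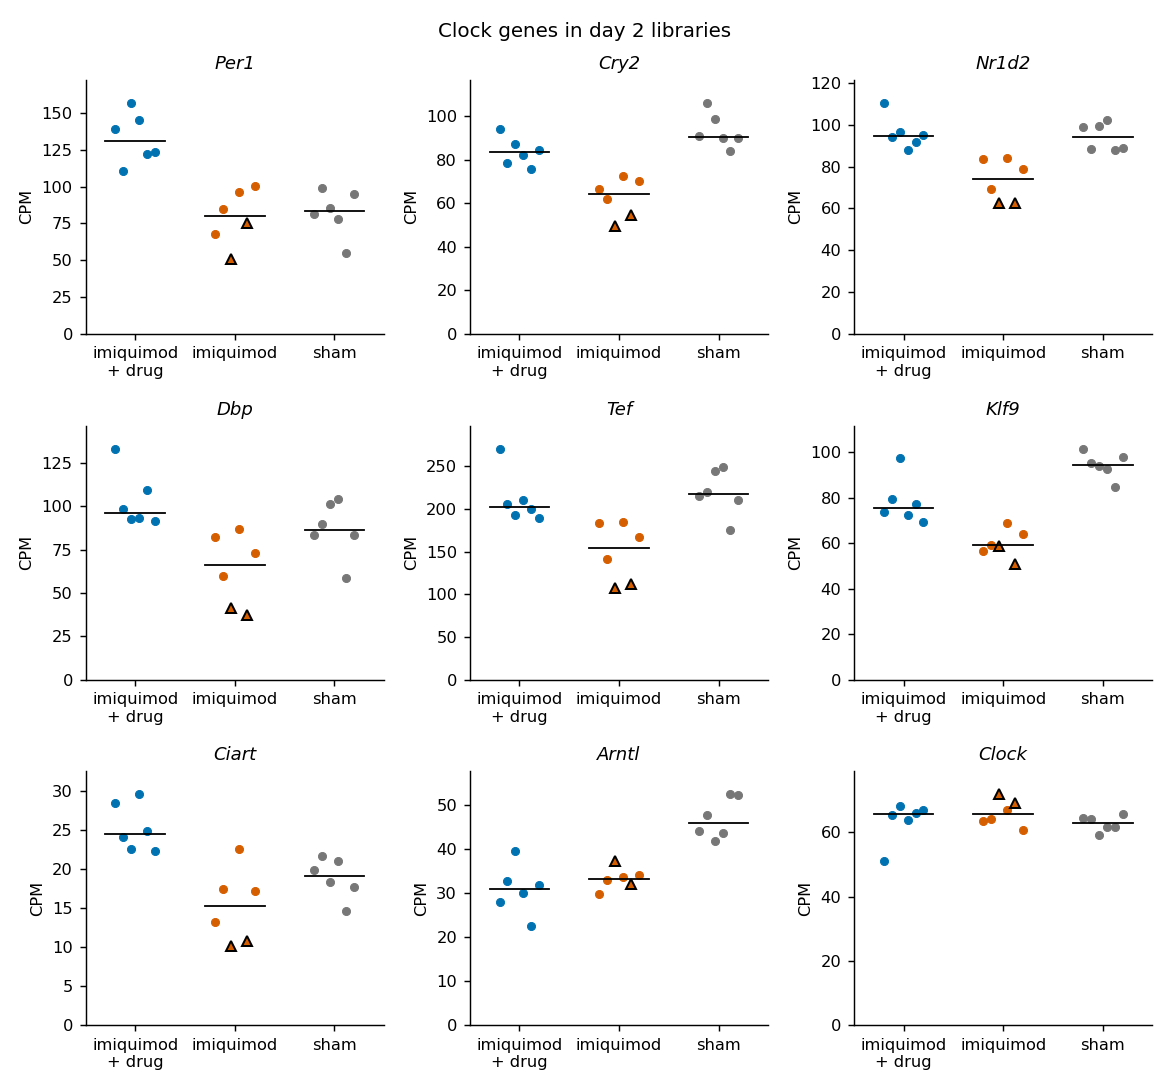
CPM of 9 clock genes in each day 2 library (points; drug, imiquimod and sham groups from left to right; bars are medians; triangles are imiquimod libraries 9 and 11). Every drug library lies above every imiquimod library for Per1, Cry2, Nr1d2, Dbp, Tef and Klf9, and the groups overlap for Ciart, Arntl and Clock.

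To show the element these genes are known for, the E-box CACGTG (the same on both strands) was looked for in the 250 bases upstream of their RefSeq starts, in build GRCm38.p6. Of 13 windows of the 11 called genes, 5 held it, in Per1, Ciart, Bhlhe41 and Tef (with 2 windows), and of all 32851 windows 1978 did (6.02%). A match describes letters and not binding, and the absence of these letters from the window of the other 7 genes says nothing of the factor. The windows of Per1 (chr11:69098699-69098948, plus strand), of Ciart, which holds 3 copies (chr3:95882229-95882478, minus strand), and of Bhlhe41 (chr6:145865421-145865670, minus strand) are shown 5′ to 3′ with the E-box in capitals. Ciart, a clock repressor, was log2 0.72 ± 0.18 at an edgeR adjusted p of 0.00525, and Bhlhe41, another repressor, log2 0.52 ± 0.14 at an edgeR adjusted p of 0.00717. They stood at 0.52 ± 0.19 (adjusted p 0.184) and 0.36 ± 0.14 (adjusted p 0.224) without libraries 9 and 11.
Per1: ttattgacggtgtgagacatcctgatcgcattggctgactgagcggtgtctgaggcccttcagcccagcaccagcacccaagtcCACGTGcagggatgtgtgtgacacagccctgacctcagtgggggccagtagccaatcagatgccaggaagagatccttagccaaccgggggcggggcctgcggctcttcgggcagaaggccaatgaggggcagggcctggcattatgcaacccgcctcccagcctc
Ciart: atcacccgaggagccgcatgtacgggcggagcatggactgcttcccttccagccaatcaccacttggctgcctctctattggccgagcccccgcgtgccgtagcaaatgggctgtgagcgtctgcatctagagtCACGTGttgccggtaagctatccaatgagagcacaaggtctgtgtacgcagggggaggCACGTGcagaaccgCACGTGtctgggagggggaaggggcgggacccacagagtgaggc
Bhlhe41: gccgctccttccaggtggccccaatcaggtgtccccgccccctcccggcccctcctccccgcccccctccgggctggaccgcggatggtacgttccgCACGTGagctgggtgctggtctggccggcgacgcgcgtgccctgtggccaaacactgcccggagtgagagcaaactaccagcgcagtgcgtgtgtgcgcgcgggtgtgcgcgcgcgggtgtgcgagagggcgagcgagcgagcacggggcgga

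Some lists held both genes that were higher and genes that were lower in drug libraries. Among xenobiotic metabolism genes 6 of 32 were higher and 3 lower. That is 28.1% of the list called, against 16.5% of all tested genes (6.9% higher and 9.61% lower). Ces1d, a carboxylesterase, had 29.4 to 38.8 CPM (median 31.5) in drug libraries, against 15.3 to 29.2 CPM (median 22.2) in imiquimod libraries with no overlap, and was log2 0.59 ± 0.14 at an edgeR adjusted p of 0.00321, against 0.43 ± 0.14 (adjusted p 0.146) without libraries 9 and 11. Ugt1a6b, a glucuronosyltransferase that shares exons with its neighbours, had 2.61 to 5.93 CPM (median 3.21) in drug libraries, against 1.31 to 2.47 CPM (median 1.66) in imiquimod libraries with no overlap, and was log2 1.07 ± 0.29 at an edgeR adjusted p of 0.00963, against 1.02 ± 0.34 (adjusted p 0.141) without them. Gsta4, a glutathione transferase, went the other way, at log2 -1.54 ± 0.33 at an edgeR adjusted p of 0.0017, and -1.07 ± 0.34 (adjusted p 0.126) without them. The count of 6 was 3 without each of drug libraries 13 and 15 and imiquimod libraries 8, 9 and 11.

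Dst, the hemidesmosome linker dystonin, had 570.5 to 963 CPM (median 649) in drug libraries, against 376 to 587 CPM (median 505) in imiquimod libraries, with drug library 18 alone inside the imiquimod range. It was log2 0.52 ± 0.10 at an edgeR adjusted p of 0.00096, and 0.38 ± 0.11 (adjusted p 0.0897) without the 2 libraries, where DESeq2 called it (0.0225). Acsbg1, an acyl-CoA synthetase listed with sebaceous gland genes, was log2 0.50 ± 0.10 at an edgeR adjusted p of 0.000908, and 0.31 ± 0.08 (adjusted p 0.0832) without them, where both DESeq2 (0.0208) and voom (0.0481) called it. Of 12 hair follicle markers 4 were called higher (33.3%), and of 11 Schwann cell markers 2 (18.2%). Of all tested genes 16.5% were called, 6.9% higher. The 2 Schwann cell markers were the myelin gene Pmp22 (log2 0.20 ± 0.07 at an edgeR adjusted p of 0.0382) and Ncmap (log2 0.46 ± 0.12 at an edgeR adjusted p of 0.00529). Pmp22 missed the threshold without drug library 13 or 15 or imiquimod library 9, 10 or 11, at an adjusted p of 0.0515 to 0.155. Both stood lower in size without libraries 9 and 11, at 0.16 ± 0.08 (adjusted p 0.326) and 0.34 ± 0.12 (adjusted p 0.174), and edgeR called no marker of either list there. The Schwann cell count ran from 1 (without drug library 13 or 15, or imiquimod library 9 or 11) to 6 (without imiquimod library 7), and was 3 without drug library 14, 16 or 18 and 4 without imiquimod library 12. The hair follicle count was 0 without imiquimod library 9, 1 without imiquimod library 11, and 2 without drug library 13 or 15 or imiquimod library 8. Summed skeletal muscle markers were 4946 to 8163 CPM in drug libraries, 4671 to 5728 CPM in imiquimod libraries and 7223 to 9129 CPM in sham libraries. None of the 14 was called, and the part of tissue make-up in the higher genes was not tested.

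Type I interferon genes, which TLR7 signalling induces, had the highest median of the lists, log2 0.47, and 0.34 without libraries 9 and 11. Only Ifi44 of 28 was called, with 0.864 to 4.81 CPM (median 2.57) in drug libraries, against 0.360 to 1.83 CPM (median 1.201) in imiquimod libraries and overlapping groups (log2 1.23 ± 0.39 at an edgeR adjusted p of 0.0238), and it lost the call without drug library 13, 15 or 18 or imiquimod library 9 or 10, at an adjusted p of 0.0539 to 0.11. The count of called interferon genes was 0 without drug library 13, 15 or 18 or imiquimod library 9 or 10, 2 without imiquimod library 12, 3 without drug library 16 or imiquimod library 7 and 4 without drug library 17. Without libraries 9 and 11 Ifi44 stood at 1.41 ± 0.45 (adjusted p 0.132), and edgeR called none. Ifit1 had 7.11 to 28.6 CPM (median 12.9) in drug libraries, against 7.23 to 16.5 CPM (median 9.39) in imiquimod libraries, and was log2 0.52 ± 0.38 at an edgeR adjusted p of 0.377. Cntfr, a receptor subunit for ciliary neurotrophic factor, was among the 10 highest fold changes (log2 0.89 ± 0.29 at an edgeR adjusted p of 0.0289), but drug library 15 held 32.1 CPM and the other 5 held 4.39 to 5.99 CPM. Without that library it was at 0.04 (adjusted p 0.918). Cntfr also missed the threshold without imiquimod library 9, 10 or 11.

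Genes outside the lists were among the largest changes. Fgf23, a phosphate-regulating hormone, had 0 to 0.643 CPM (median 0.0526) in drug libraries, against 0.365 to 7.69 CPM (median 1.14) in imiquimod libraries, and was log2 -4.25 ± 0.93 at an edgeR adjusted p of 0.0021, against -2.46 ± 1.01 (adjusted p 0.233) without libraries 9 and 11. Uox, urate oxidase, had 0 to 1.55 CPM (median 0.508) in drug libraries, against 0.791 to 25.2 CPM (median 3.001) in imiquimod libraries, and was log2 -3.39 ± 0.74 at an edgeR adjusted p of 0.00206, against -2.22 ± 0.76 (adjusted p 0.151) without them. Both lost the edgeR call without the 2 libraries, and both kept it with any single library left out. Kcnj16, an inwardly rectifying potassium channel, had 4.35 to 8.55 CPM (median 5.77) in drug libraries, against 2.19 to 4.93 CPM (median 2.87) in imiquimod libraries, and was log2 0.91 ± 0.25 at an edgeR adjusted p of 0.00906, against 0.70 ± 0.27 (adjusted p 0.199) without the 2. Slc23a3, of the nucleobase and ascorbate transporter family, had 2.79 to 4.14 CPM (median 3.68) in drug libraries, against 0.887 to 2.74 CPM (median 2.35) in imiquimod libraries with no overlap, and was log2 0.83 ± 0.20 at an edgeR adjusted p of 0.00421, against 0.55 ± 0.20 (adjusted p 0.174) without the 2.

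Both later days of the time course have the same 2 groups, so the change at day 2 was tested against the change at each of them. The difference between the day 2 and the day 5 change was called for 928 genes (4.94% of 18780; 2.4% higher and 2.54% lower), and between day 2 and day 8 for 120 (0.639%; 0.298% higher and 0.341% lower). Without imiquimod libraries 9 and 11 the counts were 1489 (7.95%) and 2, Heca and Cyp2b10 (0.0107%). None of the panel of 20 inflammation and drug target genes differed from day 5, and only Paqr7 differed from day 8: its change was 0.64 ± 0.31 at day 5 and 0.23 ± 0.32 at day 8, and day 2 less day 8 was 1.66 ± 0.42 (adjusted p 0.0492). Without the 2 libraries the adjusted p of that difference was 0.215. S100a8 stood at -1.42 ± 0.53 at day 5 and -0.49 ± 0.52 at day 8, and the differences of day 2 from them were -1.74 ± 0.76 (adjusted p 0.185) and -2.68 ± 0.76 (adjusted p 0.0688). Ccl20, at log2 -0.92 ± 0.46 at day 2, stood at 1.19 ± 0.48 at day 5 and 1.44 ± 0.51 at day 8, with differences of -2.11 ± 0.66 (adjusted p 0.0515) and -2.37 ± 0.69 (adjusted p 0.0741).

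Genes with the smallest adjusted p against day 5 had larger differences between the groups at day 5 than at day 2. Faah, the hydrolase of fatty acid amides, averaged 85.8 ± 8.50 CPM (SD, n = 6) in drug libraries and 79.5 ± 13.8 in imiquimod libraries at day 2, and 82.8 ± 19.1 and 34.7 ± 4.85 at day 5. The difference was log2 0.11 ± 0.11 at day 2 and 1.25 ± 0.12 at day 5. The GTPase-activating protein gene Arhgap22 stood at log2 0.30 ± 0.11 at day 2 and -0.86 ± 0.11 at day 5. Heca had changed at day 2, by log2 0.43 ± 0.06, and stood at -0.12 ± 0.06 at day 8, a difference of 0.55 ± 0.09 (adjusted p 0.00244). Cyp2b10, a cytochrome P450 of xenobiotic metabolism, was at log2 -0.09 ± 0.10 at day 2 and 0.77 ± 0.11 at day 8, a difference of -0.86 ± 0.15 (adjusted p 0.00393).

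Members of several gene groups differed between day 2 and day 5. At day 2, 6.9% of all tested genes were called higher and 9.61% lower, at day 5 18.3% and 17.2%, and at day 8 1.22% and 0.335%. Type I interferon genes had a median of log2 0.47 at day 2 (1 of 28 higher) and of -0.72 at day 5 (1 higher and 14 lower), and the difference between days was called for 7 of them, Isg15, Irf7, Oas3, Rsad2, Ifi44, Rtp4 and Xaf1. The Skint genes, butyrophilin-like genes of keratinocytes, had 2 of 11 higher at day 2 and all 11 higher at day 5, with medians of 0.40 and 1.39, and Skint1, Skint5, Skint9 and Skint10 passed the test between days. The day 2 count of Skint genes was 0 without imiquimod library 9 and 1 without drug library 13 or 15 or imiquimod library 8 or 11, and 0 without libraries 9 and 11. Of 14 sebaceous gland markers 1 was higher at day 2, 11 at day 5 and 7 at day 8, and 8 passed the test between days 2 and 5. The day 2 count of sebaceous gland markers was 2 without drug library 16 or 18 or imiquimod library 10 or 12. Of 12 adipocyte markers 1 was higher at day 2 and 12 at day 5, and 7 passed that test. The day 2 count of adipocyte markers was 0 without drug library 15 or imiquimod library 9 or 11 and 2 without drug library 16 or imiquimod library 7 or 12. No member of the interferon, Skint, sebaceous gland or adipocyte lists passed the test between days 2 and 8, and 0 members of the neutrophil chemokine, mitosis and DNA replication lists passed either test.

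The clock genes were called at day 5 in 11 of 17 cases too, 10 higher and 1 lower (35.4% of all genes were called there), and in 1 case at day 8 (1.56%). Per1 was at 0.74 ± 0.14 at day 2, 0.10 ± 0.14 at day 5 and 0.71 ± 0.14 at day 8, and the day 2 and day 5 changes differed at an adjusted p of 0.05, just over the threshold. Of the 17 only Hlf, an output gene, differed between day 2 (0.51 ± 0.17) and day 5 (1.42 ± 0.18; adjusted p 0.0238). The 3 days were sampled from different libraries.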

How the data were processed

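The libraries were mRNA-seq of ear punches, per the labels' protocols, and the deposited values used are estimated counts per gene (expected counts from salmon, per the names of the deposited files), for 52 libraries of the time course in 9 groups. The genome was GRCm39, per the submitters' processing notes; the salmon version, annotation and strand setting were not given in the sources used here, so reads of a gene and an antisense partner cannot be told apart. Estimated counts were rounded to whole numbers. The fit was edgeR 4.0.16 (quasi-likelihood, robust, TMM, its default expression filter) over all 52 libraries, with contrasts for each comparison and Benjamini-Hochberg adjustment over all tested genes (threshold 0.05), in R 4.3.3. DESeq2 1.42.0 and limma 3.58.1 (voom with library weights) were alternatives, and 20 genes were also tested by exact permutation of log2 CPM with a prior count of 2 (scipy 1.17.1). The edgeR steps were tested on simulated data.

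Named genes were the panel of 20, genes called without imiquimod libraries 9 and 11 (up to 25), the 10 highest and 10 lowest fold changes of called genes whose log2 CPM averaged 1 or more, up to 4 called members of each list, and the 5 smallest adjusted p in each test between days; others were named as list members or for their values. One gene that the rule names is not reported here. The members and lists were chosen with earlier results of these data known. Depth is given in the report, and intervals cover counting error only. Promoter windows came from RefSeq sequences of GRCm38.p6, a different build from that of the counts, and were matched by gene symbol.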

Additional observations from a re-analysis of the deposited data

Results flagged for a closer look

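A library apart was looked for in 56 sets of 6 values, each set being 1 gene in 1 group of libraries. In 6 sets the gap of a library to the nearest other, divided by the set's range on the log2 scale, passed Dixon's 95% critical value. For a single set chance gives about 1 in 20. The sets share libraries and are not independent, so the count of 6 was not tested against that rate. Drug library 13 was the lowest for Ccl20 (gap ratio 0.684) and the highest for Il1b (0.698), Cxcl2 (0.740) and Csf3 (0.752), the gene of the neutrophil growth factor G-CSF. The value of Csf3 in that library rests on 8 counts. Imiquimod library 11 was the highest for Il36a (0.846), and imiquimod library 9 the lowest for Sik1 (0.663).

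The drug effect differed between days by edgeR's test of the difference itself. Day 2 less day 5 was 0.29 for Heca, 1.29 for Cntfr (which rests on drug library 15), 1.16 for Arhgap22, 0.65 for Fnip2 and 0.34 for Rnf144b. It was -1.14 for Faah, -1.14 for St3gal5 and -0.47 for Cyp2b10. Day 2 less day 8 was 1.66 for Paqr7, 0.38 for Mef2a, 0.55 for Heca and 0.49 for Rnf144b, and -4.69 for Fgf23, -0.86 for Cyp2b10 and -0.76 for Hk2. Without imiquimod libraries 9 and 11 only Heca and Cyp2b10 passed the test between days 2 and 8.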

How the results depend on the processing

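No paired analysis was possible because the drug and imiquimod libraries share no replicate numbers. The call count was 3100 with all libraries and edgeR, and 210 with a log2 size of at least 1. Without imiquimod libraries 9 and 11 edgeR called 7 (6 higher, 1 lower), DESeq2 299 (140 higher, 159 lower) and voom 57 (25 higher, 32 lower). With only the compared groups edgeR called 0 (0 higher, 0 lower), and 0 without the 2 libraries. The number called higher was 823 with no filter and 834 with the 3 groups of day 2. Leaving out 1 library gave 1416 (without imiquimod library 9) to 3889 (without imiquimod library 12) calls, 542 to 1719 higher and 874 to 2170 lower. The difference of day 2 from day 5 was called for 928 genes, and for 1489 without the 2 libraries, and that from day 8 for 120 and 2. Signs turned for Il17a and Il1b without the 2 libraries. Il17a stood at 0.23 in edgeR, 0.035 in voom and 0.052 by permutation. Il1b stood at 0.26 in edgeR, 0.29 in DESeq2 and 0.28 with 2 groups. Cxcl2, positive in edgeR with all libraries, kept its sign without imiquimod library 11, at 0.70. Its sign turned in voom (-1.07, and -0.054 without the 2 libraries) and by permutation (-0.69 and -0.64 with prior counts of 2 and 5). It also turned when drug library 13 (-2.30), imiquimod library 10 (-0.013) or imiquimod library 12 (-0.0085) was left out. The cause was not tested. At 13.1 M counts, the lowest library, Il17a and Ccr6 rest on few reads.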
